A study of Mus musculus with 24 samples.

Results

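Forebrain RNA of 4 TgCRND8 mice was set against that of 4 non-transgenic littermates at 80 days of age. The 8 arrays are the samples titled TgCRND8_Day80 and Control_Day80, out of 24 in a series that also holds 4 arrays of each genotype at 70 and at 150 days, and each array was kept under its label. TgCRND8 mice carry a human amyloid precursor protein (APP) transgene bearing the Swedish mutation and the Indiana mutation, labelled APPSwe/Ind, and the littermates carry none. The promoter of the transgene, the strain and the sex of the mice are not given in the labels. In both groups the frozen brain was treated with RNAlater ICE and parted from olfactory bulb, cerebellum and brainstem before RNA was taken, and each mouse gave 1 array. Values are log2 signals as deposited, so a difference of 1 is a doubling, and 18193 genes were compared with 1 probe set each.

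APP is cut first by the β-secretase Bace1 and then by the γ-secretase complex to release amyloid-β. The Swedish mutation favours the first cut and the Indiana mutation shifts the second towards the longer, more readily aggregating peptide, and mice with both deposit amyloid early in adult life. Microglia that gather at deposits switch on genes that depend on the lipid receptor Trem2, such as Cst7, and nearby astrocytes make more of the filament proteins Gfap and Vim. The comparison at day 80 addresses what of this, and of other pathways, was visible in whole forebrain RNA at that age.

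Forebrain markers were present in both groups. The glutamate transporter gene Slc17a7 averaged 7.79 ± 0.23 in TgCRND8 and 7.75 ± 0.20 in control arrays, the cortical and striatal transcription factor gene Bcl11b 8.72 ± 0.15 and 8.68 ± 0.24, and the myelin gene Mbp 12.81 ± 0.10 and 12.81 ± 0.10 (SD, n = 4 each). Ttr, which choroid plexus makes in bulk, reached 12.97 in TgCRND8 and 12.89 in control arrays, so that tissue was present in both groups. Xist, transcribed from the inactive X of females, read 3.32, 9.61, 3.07 and 9.38 in TgCRND8 arrays 1 to 4, and 3.13, 9.71, 9.36 and 3.50 in control arrays 1 to 4. Each group thus had 2 arrays with high and 2 with low Xist, and the Y-linked Eif2s3y was higher in the low-Xist arrays (4.78 and 5.10 in TgCRND8, 4.12 and 4.70 in control) than in the others (2.50 and 2.55 in TgCRND8, 2.51 and 2.82 in control). Pearson correlations between arrays over all genes had a median of 0.99394 within groups (12 pairs) and 0.994 across them (16 pairs), and the highest was 0.99775, between TgCRND8 array 1 and control array 1.

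Those 2 arrays numbered 1 also stood on the other group's side for Prmt3, an arginine methyltransferase gene that had separated the genotypes at the other ages. Prmt3 read 5.58 to 6.16 in TgCRND8 and 6.62 to 6.77 in control mice at day 70, and 5.85 to 6.01 in TgCRND8 and 6.42 to 6.87 in control mice at day 150, with no overlap at either age. At day 80 it read 6.70, 6.12, 5.98 and 5.76 in TgCRND8 arrays 1 to 4, and 5.92, 6.56, 6.68 and 6.53 in control arrays 1 to 4. TgCRND8 array 1 therefore lay among the controls and control array 1 among the TgCRND8 mice, while the other 6 arrays separated as at the other ages. The day 80 difference in Prmt3 was -0.29 with all 8 arrays and -0.64 without the 2 arrays numbered 1 (adjusted p = 0.1927 by limma, Benjamini-Hochberg). The gene was picked with its values at the other ages known, its 4 dimmer probe sets differed by -0.17 to 0.09, and whether either label is wrong was not tested. Values without both arrays are given below for some of the genes that differed by over 1 standard error and moved by over 1.5 times, and for some others. Where an array numbered 1 lay on the other group's side for a gene, leaving it out enlarges the difference by construction.

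No gene passed between TgCRND8 and control forebrain at day 80. By limma, with Benjamini-Hochberg adjustment, 0 of 18193 genes (0.0%) had an adjusted p under 0.05, and the smallest was 0.9734, for Teddm2. An unadjusted p under 0.05 was seen for 685 genes, or 3.77%, of which 453 (2.49%) were higher and 232 (1.28%) were lower in TgCRND8. These p rest on the spread of all 24 arrays, and with only the 8 arrays of day 80 the count was 319. Complete separation of the 4 TgCRND8 arrays from the 4 control arrays was found for 154 genes upwards (0.846%) and 73 downwards (0.401%). The median standard error of a difference was 0.0977, and 99.97% of genes differed by less than 0.5 log2. Only 6 genes differed by more: Alas2, Avp, S100a9, Gh and Prl were higher and Abi3bp was lower. In arrays simulated with independent noise of each gene's pooled spread, 78% of 100 genes were recovered after a shift of 0.5 log2. After a shift of 1 it was 99% of 100. Shifts that many genes of 1 array share, described below, and differences in spread between groups were not simulated, so recovery may be overstated. The simulation was 1 run with both sets of genes shifted together (180 calls, 3 of them false), which makes the adjusted threshold easier to pass than where few genes differ.

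**Figure D1:**
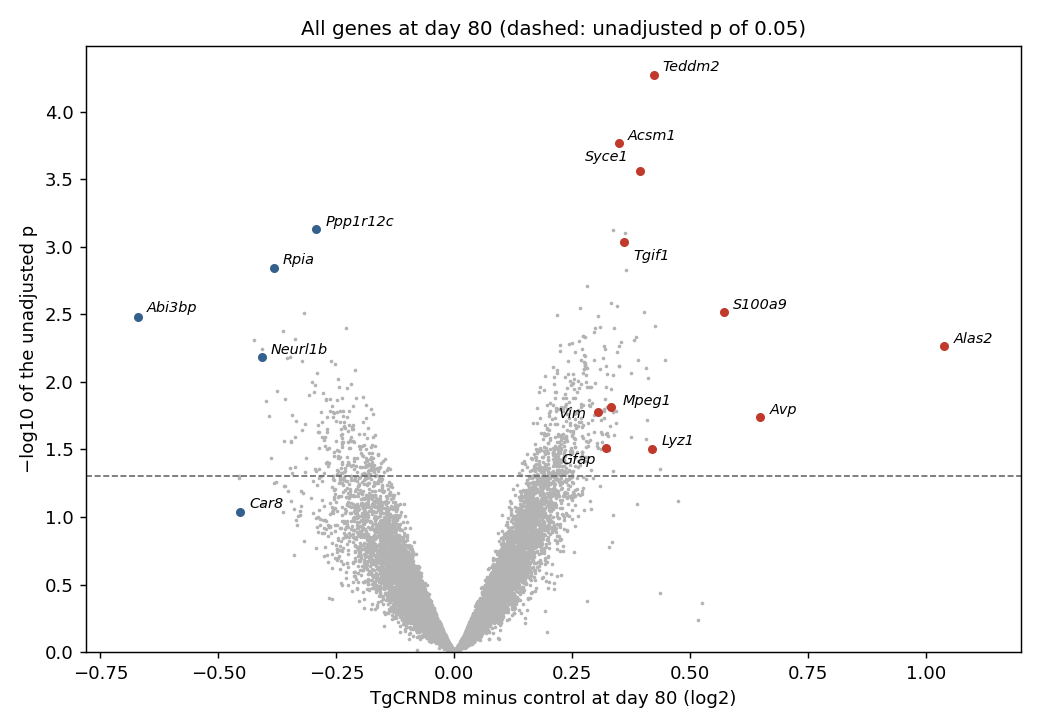
Each grey point is 1 of 18193 genes, with the TgCRND8 minus control difference at day 80 (log2) on the horizontal axis and the −log10 of its unadjusted limma p on the vertical axis. Named genes are red where higher and blue where lower in TgCRND8; Teddm2 has the smallest p and Alas2, at 1.04, the largest difference.

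The direction of these differences went with how bright a gene was. Genes were split by mean level into 5 bins of equal size. In the dimmest bin the median difference was 0.034 and 157 genes were higher against 27 lower at an unadjusted p under 0.05. In the brightest bin the median was -0.026, with 3 higher and 42 lower. This pattern was largest in TgCRND8 arrays 2 and 4. Their dimmest bin lay 0.068 and 0.080 above the mean of the 8 arrays and their brightest bin 0.046 and 0.056 below it. TgCRND8 array 1 and control arrays 1 and 2 ran the other way. The share of genes at an unadjusted p under 0.05 that was higher was 66.1% of 685. It was 73.4% of 319 with only the 8 arrays of day 80 and 70.7% of 703 with the mean of all probe sets. It was 56.5% of 626 after quantile normalization, 55.6% of 657 after median centring, 52.2% of 617 after cyclic loess, 40.7% of 295 without the dimmest 40% of genes and 37.9% of 354 without TgCRND8 arrays 2 and 4, which are also the 2 TgCRND8 arrays with high Xist. With Xist as a covariate it was 66.6% of 745. Without 1 array it was lowest without TgCRND8 array 3 (53.6% of 1235) and without control array 1 (53.6% of 689). It was 58.2% of 443 without TgCRND8 array 4, 62.2% of 463 without TgCRND8 array 2, and 63.2% to 66.0% without any other single array. Leaving out TgCRND8 arrays 2 and 4, here and below, keeps only 2 TgCRND8 arrays, both with low Xist. Xist is then no longer balanced between the groups (difference -3.23), so that setting changes more than array scaling. The excess of higher genes thus moved with array scaling and also with which single arrays were kept. For many genes and lists below the array values are given. Lists are set against all genes, not against genes of like brightness, so small medians of dim or bright lists carry this pattern. After quantile normalization the medians of APP processing, oxidative phosphorylation and heat shock genes, all slightly below 0 as deposited, were 0.0147, 0.0049 and 0.0214.

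**Figure D2:**
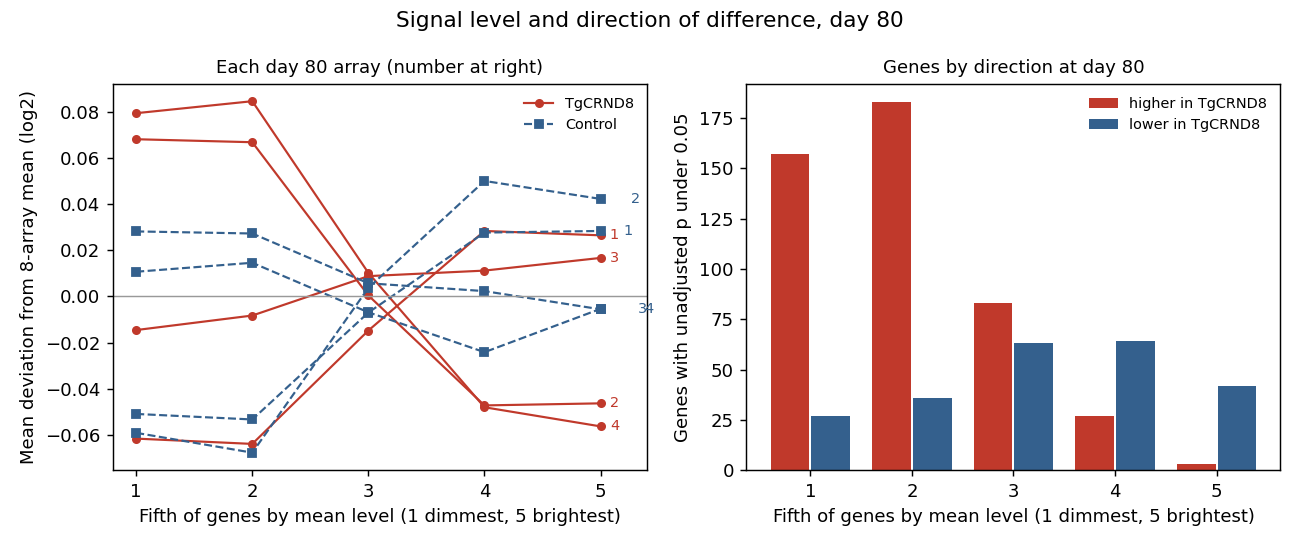
Left, the mean deviation of each day 80 array from the mean of the 8 arrays (log2), for genes in 5 bins by mean level from dimmest to brightest; TgCRND8 arrays are red circles, control arrays blue squares, and numbers name the replicate. Right, the number of genes in each bin with an unadjusted p under 0.05, higher (red) and lower (blue) in TgCRND8: 157 and 27 in the dimmest, 3 and 42 in the brightest.

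Differences in the genes of APP itself and of its processing lay between -0.15 and 0.16. The brightest App probe set read 12.02, 11.78, 11.78 and 12.10 in TgCRND8 arrays, and 12.13, 11.93, 11.75 and 11.82 in control arrays, a difference of 0.01 (exact permutation p = 0.943, two-sided). A second bright App probe set differed by 0.13 (exact permutation p = 0.486), and 2 dim ones by -0.08 and 0.00 (exact permutation p = 0.514 and 1.0). The 2 probe sets of Prnp, the prion protein gene whose promoter drives many such transgenes, differed by 0.02 and 0.09 (exact permutation p = 0.771 and 0.0857). With 4 arrays against 4 the smallest p this test can give is 0.0286. Whether these mouse probe sets bind transgene RNA is not known from the labels, so they cannot check genotype.

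Of 22 measured genes of APP processing, 10 were higher and 12 lower, with a median of -0.01, against 50.9% higher and a median of 0.0022 over all genes. Bace1, the β-secretase gene, differed by 0.01, the γ-secretase genes Psen2, Ncstn and Psenen by 0.06, 0.08 and 0.08, and Adam10, the main α-secretase gene, by -0.13. Ace, coding for angiotensin-converting enzyme, which can degrade amyloid-β in vitro, was the 1 member whose groups did not overlap, as for 0.846% of all genes upwards. It read 6.25, 6.31, 6.24 and 6.39 in TgCRND8 arrays, and 6.07, 6.21, 6.08 and 6.16 in control arrays, higher by 0.16 (standard error 0.08; unadjusted p = 0.0514 by limma). Its second, dimmer probe set overlapped and differed by -0.01. Apba1, an adaptor that binds the APP tail, was lower by 0.15 with 1 low TgCRND8 array at 6.05, while the mean of its probe sets differed by 0.05.

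Of the astrocyte filament genes, Gfap and Vim had higher means in TgCRND8 arrays and Nes did not, and none passed. Gfap read 7.27, 7.67, 7.87 and 7.79 in TgCRND8 arrays, and 7.36, 7.36, 7.17 and 7.42 in control arrays. TgCRND8 arrays 2, 3 and 4 lay above all controls and array 1 within them. The means were 7.65 ± 0.26 and 7.33 ± 0.11 (SD, n = 4 each), a difference of 0.32 (standard error 0.141, unadjusted p = 0.0307 by limma), and the 2 other Gfap probe sets were higher by 0.30 and 0.37. Vim read 6.56, 6.73, 6.86 and 7.001 in TgCRND8 arrays, and 6.80, 6.44, 6.27 and 6.43 in control arrays, higher by 0.30 (standard error 0.119, unadjusted p = 0.0168 by limma). TgCRND8 arrays 3 and 4 lay above all controls. Its brightest control was array 1 and its dimmest TgCRND8 array was array 1, and its 2 other probe sets differed by 0.13 and 0.0027. Nes, another filament gene, named after its values were seen, was lower by 0.10 (unadjusted p = 0.2339 by limma). Without the 2 arrays numbered 1 Gfap was higher by 0.46 and Vim by 0.48. By limma their unadjusted p were 0.00594 and 0.000519 and their adjusted p 0.7194 and 0.6588. TgCRND8 array 1 was the dimmest TgCRND8 array for both genes, and control array 1 the brightest control for Vim. Leaving them out thus enlarges these differences by construction, and the smaller p are no support.

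The promoters of these 2 genes are shown because both genes are described above as markers of reactive astrocytes; each runs from 250 bases before to 50 after the RefSeq start on GRCm38.p6, 300 bases in all. Capitals mark TTCNNNGAA, the letters that STAT proteins, which carry cytokine signals to Gfap, recognise; it reads the same on both strands and stands in 8.5% of 27025 mouse promoters of this length. The Gfap promoter, chr11:102897151-102897450 on the minus strand, holds 1 match, from base 249. That of Vim, chr2:13574061-13574360 on the plus strand, holds 0.
Gfap: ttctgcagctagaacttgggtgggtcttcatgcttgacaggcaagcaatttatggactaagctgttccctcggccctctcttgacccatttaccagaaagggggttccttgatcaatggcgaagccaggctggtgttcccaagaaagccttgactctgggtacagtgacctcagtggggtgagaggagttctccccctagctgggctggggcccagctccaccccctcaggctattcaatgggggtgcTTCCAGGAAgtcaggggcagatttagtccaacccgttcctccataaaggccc
Vim: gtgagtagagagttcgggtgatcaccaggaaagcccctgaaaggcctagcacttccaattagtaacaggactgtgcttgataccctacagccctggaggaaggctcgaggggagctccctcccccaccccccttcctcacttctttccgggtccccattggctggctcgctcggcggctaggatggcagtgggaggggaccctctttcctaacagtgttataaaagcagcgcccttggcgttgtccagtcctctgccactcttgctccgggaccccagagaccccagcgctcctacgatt

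The wider list of reactive astrocyte genes, which includes Gfap and Vim, did not follow them as a group. Of 26 measured, 16 were higher and 10 lower, with a median of 0.03, and 3 (Gfap, Vim and Tgm1) were higher at an unadjusted p under 0.05, as were 2.49% of all genes. Tgm1, a transglutaminase gene known from reactive astrocytes and named after its values were seen, did not overlap, as for 0.846% of all genes upwards. It read 3.25, 3.43, 3.42 and 3.44 in TgCRND8 arrays and 3.20, 3.05, 3.19 and 3.15 in control arrays. It is a dim probe set, near the lower quartiles of the 8 arrays (3.18 to 3.32). Osmr, the oncostatin M receptor gene, was higher by 0.20, while the acute-phase genes Serpina3n and Lcn2 differed by 0.00 and 0.02 and the surface protein gene Cd109 by -0.15. Genes of resting astrocytes leaned lower in 17 of 21 with a median of -0.05. Aldoc differed by -0.02, the water channel gene Aqp4 by 0.09 and the transporter gene Slc7a10 by -0.11. Their mean was low in TgCRND8 arrays 2 and 4 (-0.07 and -0.09 from the mean of the 8 arrays) and not in arrays 1 and 3 (0.05 each), and without arrays 2 and 4 the median was 0.04. The list is bright (median level 8.68), as are the genes that leaned lower in general, and its median was -0.02 after quantile normalization. Whether array scaling, fewer such cells or less RNA in each lay behind this lean was not tested, and in bulk tissue the last 2 cannot be told apart.

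Among microglial genes a few phagocyte genes were higher and the best-known plaque markers were not. Mpeg1, the perforin-like gene of macrophages, read 5.12, 5.43, 5.54 and 5.26 in TgCRND8 arrays, and 4.99, 4.86, 5.23 and 4.93 in control arrays, higher by 0.33 (standard error 0.128, unadjusted p = 0.0153 by limma). Only TgCRND8 array 1 fell below the highest control. Lyz1, a lysozyme gene, read 6.76, 6.90, 7.20 and 6.63 in TgCRND8 arrays, and 6.42, 6.24, 6.51 and 6.65 in control arrays. It was higher by 0.42 (standard error 0.184, unadjusted p = 0.0314 by limma), 3 of 4 TgCRND8 arrays lay above all controls, and its dimmer probe sets were higher by 0.27 and 0.16. Lyz1 and its neighbour Lyz2 are close copies that probes can share, and Lyz2, named after its values were seen, was higher by 0.17. Tlr2, a receptor for bacterial lipoproteins that also binds amyloid, read 4.01, 4.32, 4.15 and 3.87 in TgCRND8 arrays, and 3.99, 3.64, 3.60 and 3.84 in control arrays, higher by 0.32 (unadjusted p = 0.0133 by limma).

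Cst7, by contrast, read 2.98, 3.35, 3.16 and 3.27 in TgCRND8 arrays, and 3.21, 2.96, 3.28 and 3.06 in control arrays, near the arrays' lower quartiles in both groups. Trem2 differed by -0.05, its signalling partner Tyrobp by 0.08, the leukocyte phosphatase gene Ptprc by -0.07 and the phagosome marker gene Cd68 by 0.11. The plaque-associated microglia list had 21 of 30 measured members higher, with a median of 0.06, and 3 had an unadjusted p under 0.05 (Tlr2, Mpeg1 and the chemokine gene Ccl6, the last named after its values were seen), all higher, as were 2.49% of all genes. Their mean deviation from the 8 arrays was -0.04, 0.03, 0.11 and 0.01 in TgCRND8 arrays 1 to 4, and -0.03, -0.09, 0.01 and -0.01 in control arrays, so the groups overlapped. Genes of resting microglia were split, 11 of 21 higher with a median of 0.01. Tmem119 was higher by 0.14 and P2ry12 lower by 0.03, Itgam was higher by 0.26 at a dim 3.39, against 3.14 in control arrays, and the transcription factor gene Sall1 was lower by 0.22.

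**Figure D3:**
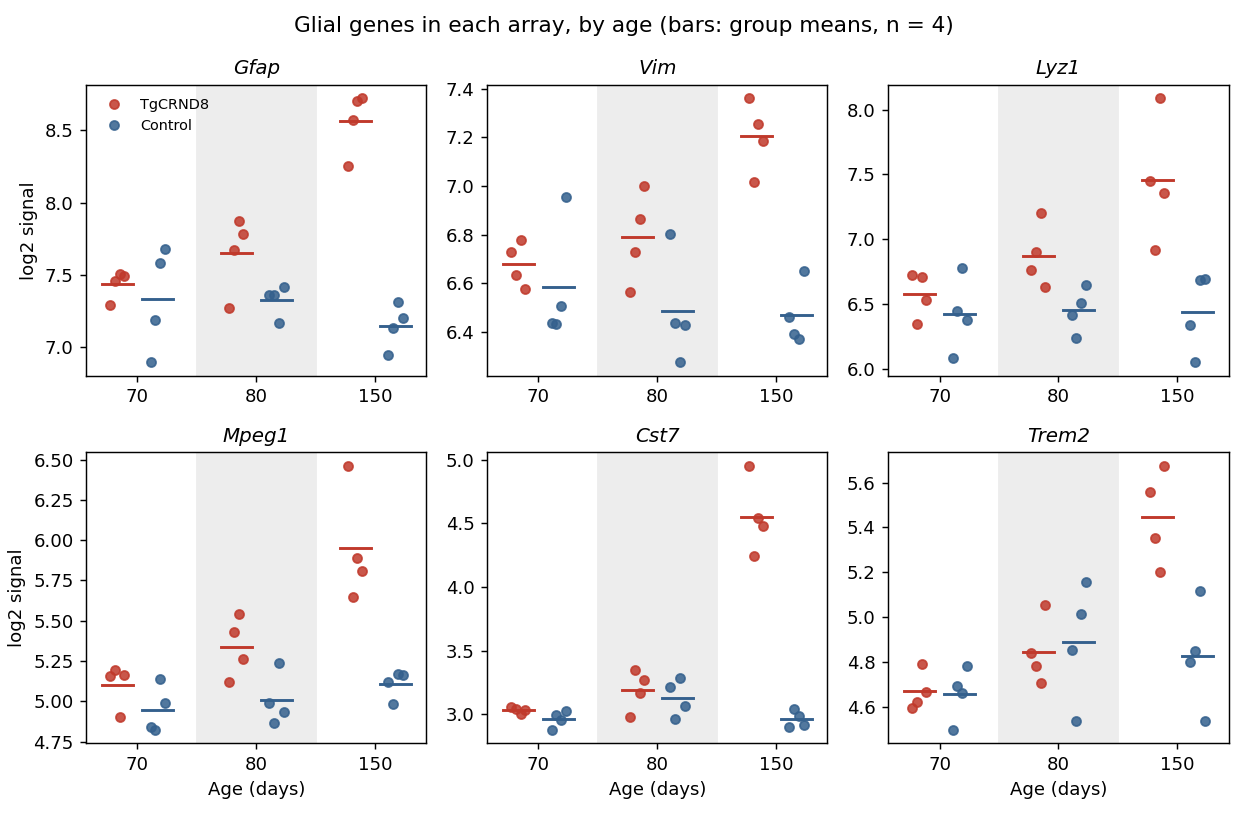
Log2 signal of 6 glial genes in every array at 70, 80 and 150 days, TgCRND8 (red) left of control (blue), with bars for group means of 4 arrays; day 80 is shaded. At day 80 Gfap, Lyz1 and Mpeg1 have 3 of 4 TgCRND8 points above all controls and Vim 2 of 4 (differences of 0.30 to 0.42), while Cst7 and Trem2 overlap (0.06 and -0.05).

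The 22 genes that earlier results of these data had placed higher at day 150 were followed at day 80, where none of them passed. Of the 22, 17 were higher with a median of 0.12, against 0.0022 over all genes, and 4 (Gfap, Mpeg1, Lyz1 and Vim) were higher at an unadjusted p under 0.05, as were 2.49% of all genes. The fit shares 1 estimate of spread with day 150, where these genes were chosen, so this count is not independent of the choice. None of the 22 had groups that did not overlap, against 0.846% of all genes upwards and 0.401% downwards. The 5 lower members were Ptprc, Rims1, Trem2, Cd52 and C1qc, by 0.07, 0.06, 0.05, 0.03 and 0.03. Their mean deviation was -0.06, 0.06, 0.20 and 0.07 in TgCRND8 arrays 1 to 4, and -0.03, -0.14, -0.03 and -0.05 in control arrays 1 to 4. TgCRND8 arrays 2, 3 and 4 lay above all controls and array 1 below 3 of them. The median was 0.16 without the 2 arrays numbered 1 and 0.12 without TgCRND8 arrays 2 and 4.

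Other immune gene groups differed in how far they leaned from the 50.9% of all genes that were higher. Of 17 complement genes 10 were higher, with a median of 0.03. C1qa, a chain of the complement starter C1q, was higher by 0.15 and C1qb by 0.03, C1qc was lower by 0.03 and Cfp, coding for properdin, was lower by 0.26 with 1 TgCRND8 array at 6.05. Of 26 cytokine, chemokine and Toll receptor genes 17 were higher (median 0.04), with Il1b at -0.08, Il1a at 0.11 and Il34, a ligand of the microglial receptor Csf1r, at -0.12. The Il34 value came from TgCRND8 array 2, which read 5.58 against 6.18 to 6.36 in all 7 other arrays, and without it the difference was 0.05. Interferon-stimulated genes were higher in 11 of 22 (median 0.01). Among them Ifitm3, a membrane protein that blocks virus entry, was the 1 member that did not overlap, as for 0.846% of all genes upwards. It read 6.84, 6.73, 6.78 and 6.88 in TgCRND8 arrays and 6.56, 6.60, 6.72 and 6.56 in control arrays, but Ifit1, Ifit2 and Ifit3 differed by -0.02, -0.13 and -0.17.

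Antigen presentation genes were higher in 14 of 19 (median 0.05), such as the class I gene H2-D1 by 0.14 and the class II invariant chain gene Cd74 by 0.19, with Cd80 lower by 0.15. Their mean was 0.15 in TgCRND8 array 4 and at most 0.04 in any other array. Lysosome genes were evenly split, 16 of 32 higher with a median of 0.01. Grn, the progranulin gene, was higher by 0.24 on its brightest probe set but differed by -0.06 and -0.07 on 2 others of similar level. Ctsb and Ctsd differed by 0.04 and 0.05, and Ctso was lower by 0.20. Lymphocyte genes were higher in 10 of 13 (median 0.11) at levels near the arrays' lower quartiles (median level 3.31): Cd3d was higher by 0.27 and Cd3e by 0.10, while Cd3g was lower by 0.18. Without TgCRND8 arrays 2 and 4 the lymphocyte median was 0.03.

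Genes of blood cells gave the largest single difference. Alas2, the first enzyme of haem synthesis in red cell precursors, read 6.97, 5.27, 7.77 and 6.31 in TgCRND8 arrays, and 5.42, 5.03, 5.45 and 6.28 in control arrays. The means were 6.58 ± 1.06 and 5.54 ± 0.52 (SD, n = 4 each), higher by 1.04 (standard error 0.342, unadjusted p = 0.00546, adjusted p = 0.9996 by limma, Benjamini-Hochberg). The standard error and p rest on the spread of all 24 arrays, and SDs of Alas2 at days 70 and 150 were only 0.24 to 0.42. They thus understate the spread seen at day 80. TgCRND8 arrays 1, 3 and 4 lay above all controls and array 2 within them, and leaving out 1 array at a time gave 0.64 to 1.48. TgCRND8 arrays 1 and 3, the highest, both had low Xist, and the low-Xist control arrays 1 and 4 read 5.42 and 6.28; Alas2 lies on the X chromosome. At day 70 Alas2 was lower by 0.53 and at day 150 it differed by 0.02.

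The Alas2 promoter is shown as that of the gene with the largest difference, chrX:150547167-150547466 on the plus strand of GRCm38.p6. Capitals mark the 1 match, from base 165, to GATAA or its reverse complement TTATC, the letters bound by the erythroid factor GATA1, which stand in 25.8% of 27025 promoters.
Alas2: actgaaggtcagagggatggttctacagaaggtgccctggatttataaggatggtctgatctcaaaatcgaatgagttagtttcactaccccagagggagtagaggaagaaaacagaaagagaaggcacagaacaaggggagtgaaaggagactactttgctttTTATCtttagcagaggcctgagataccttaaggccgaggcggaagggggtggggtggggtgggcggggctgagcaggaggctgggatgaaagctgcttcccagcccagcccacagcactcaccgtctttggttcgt

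Car1, the carbonic anhydrase of red cells, read 3.41, 3.57, 3.47 and 3.82 in TgCRND8 arrays, and 3.30, 3.01, 3.25 and 3.26 in control arrays, higher by 0.36 (unadjusted p = 0.000795 by limma). Its groups did not overlap, as for 0.846% of all genes upwards. Of 12 measured blood and erythroid genes 9 were higher, with a median of 0.10, against 50.9% and 0.0022 over all genes, and 2 were higher at an unadjusted p under 0.05, against 2.49%. Haemoglobin probe sets differed among themselves. A second Hbb-b2 probe set read 4.998, 3.45, 6.07 and 4.03 in TgCRND8 arrays, and 3.85, 3.33, 3.66 and 4.45 in control arrays, higher by 0.81. As for Alas2, it was highest in TgCRND8 arrays 3 and 1, and control array 4 was the highest control. On the probe sets that stood for the genes, Hba-a1 differed by -0.05, Hba-a2 by 0.17, Hbb-b2 by 0.08, the band 3 gene Slc4a1 by 0.03 and Epb42, a protein of the red cell skeleton, by -0.05. These 5 probe sets were dim, with means from 2.78 to 4.27 in TgCRND8 and from 2.83 to 4.18 in control arrays. Fech, the last enzyme of haem synthesis, was higher by 0.12 but differed by -0.02 in the mean of its probe sets, and Tfrc, the transferrin receptor gene, was higher by 0.12.

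S100a8 and S100a9, which code for calprotectin, the most abundant protein of neutrophils, were looked at after their values were seen. S100a9 read 4.63, 4.29, 4.80 and 4.77 in TgCRND8 arrays, and 3.81, 3.82, 3.83 and 4.74 in control arrays, higher by 0.57 (standard error 0.174, unadjusted p = 0.00305 by limma). Control array 4 lay with the TgCRND8 arrays and also had the highest Alas2 of the controls. S100a8 read 3.74, 3.44, 3.86 and 3.54 in TgCRND8 arrays and 3.14, 3.22, 3.25 and 3.57 in control arrays, higher by 0.35, and here control array 4 lay above TgCRND8 arrays 2 and 4. Ngp, another neutrophil granule gene, also named after its values were seen, was higher by 0.20, and Itgb2, the leukocyte integrin chain, by 0.17. How much blood each forebrain held is not known from the labels, and its part in these differences was not tested.

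Hypothalamic and pituitary hormone genes were higher in 13 of 16 with a median of 0.10. Avp, the vasopressin gene of the hypothalamus, read 6.15, 6.82, 7.32 and 6.03 in TgCRND8 arrays, and 5.35, 5.93, 6.15 and 6.29 in control arrays, higher by 0.65 (standard error 0.257, unadjusted p = 0.0183 by limma), with 2 TgCRND8 arrays above all controls. Oxt, the oxytocin gene of neighbouring cells, named after its values were seen, read 6.32, 7.60, 7.56 and 6.80 in TgCRND8 arrays, and 6.36, 6.46, 6.92 and 7.23 in control arrays, again highest in TgCRND8 arrays 2 and 3. Pomc, Prl and Gh differed through TgCRND8 array 2 alone. It read 7.41 for Pomc, 5.50 for Prl and 5.72 for Gh, while the other 7 arrays reached at most 5.75, 3.44 and 4.31, and without TgCRND8 arrays 2 and 4 the median of the 16 genes was -0.02.

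**Figure D4:**
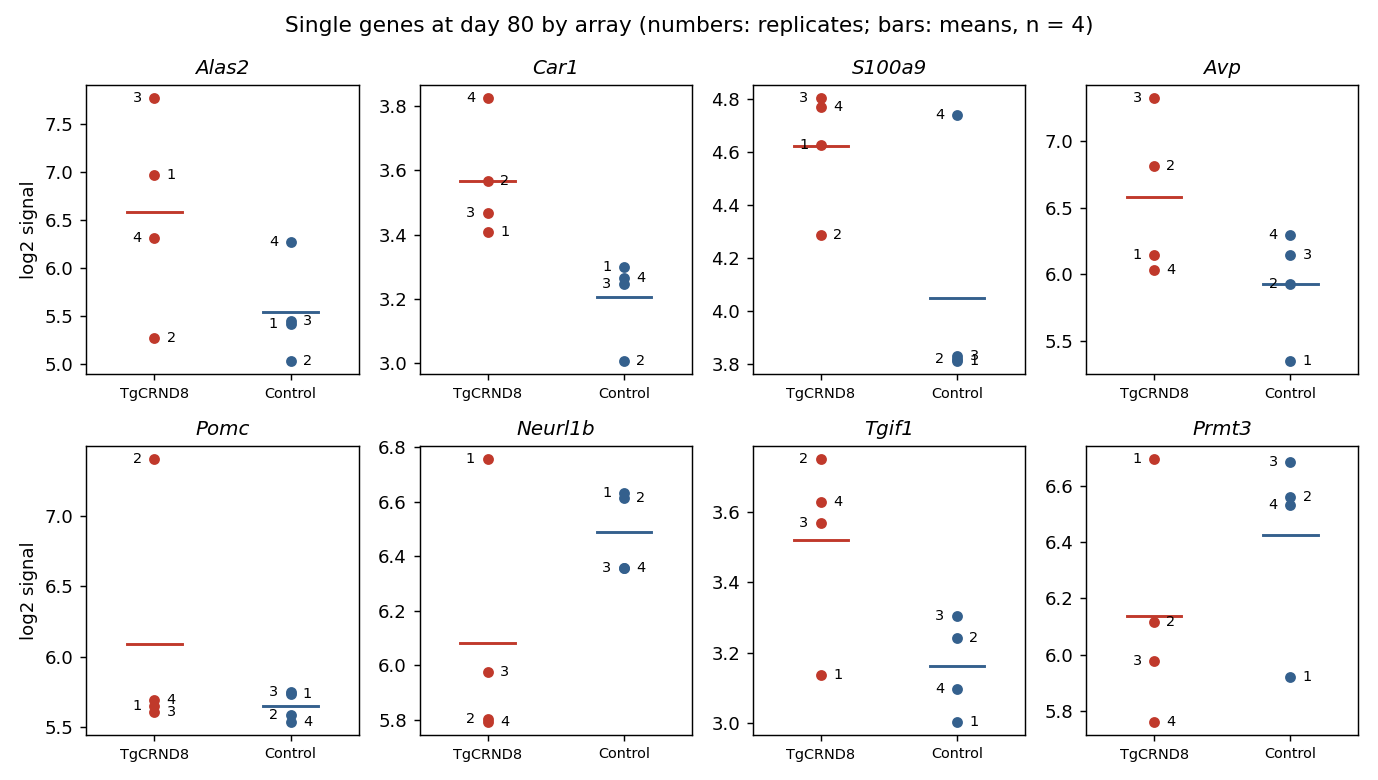
Log2 signal at day 80 of 8 genes in each array, TgCRND8 (red) left of control (blue), with replicate numbers beside the points and bars for the means of 4 arrays. Alas2 and Avp have 3 and 2 TgCRND8 arrays above all controls, Pomc only TgCRND8 array 2, S100a9 has control array 4 among the TgCRND8 arrays, and for Neurl1b, Tgif1 and Prmt3 TgCRND8 array 1 lies with the controls.

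Genes of other cell types that forebrain dissection can carry along showed small differences. Choroid plexus and ependyma genes were higher in 11 of 18 (median 0.01), with Ttr higher by 0.20 and Folr1 by 0.23. Ttr was lowest in control array 3, at 11.88, and without 1 array at a time differed by 0.01 to 0.35. Endothelial and pericyte genes were higher in 15 of 25 (median 0.02), Cldn5 by 0.11 and Kdr by 0.18, and Kdr was lower by 0.10 without TgCRND8 arrays 2 and 4. Meningeal and fibroblast genes were lower in 16 of 20 (median -0.05), among them the collagen gene Col1a2 by 0.09 and Crabp2 by 0.22. Both arrays numbered 1 were low for this group, at -0.12 in TgCRND8 and -0.11 in control.

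Myelin genes leaned lower, by small amounts. Of 20 measured, 17 were lower with a median of -0.08, and 0 had an unadjusted p under 0.05, against 3.77% of all genes. Mbp differed by -0.01 and Mog, a protein of the outer myelin surface, by -0.18, whereas Myrf, the transcription factor gene of myelinating cells, was higher by 0.12. The group's mean deviation was 0.02, -0.14, -0.04 and 0.02 in TgCRND8 arrays, and 0.01, 0.01, 0.00 and 0.12 in control arrays. TgCRND8 array 2 and control array 4 thus set most of the difference, and without TgCRND8 arrays 2 and 4 the median of the list was -0.06, while Mog was higher by 0.09. Genes of oligodendrocyte precursors were lower in 11 of 15 (median -0.06), Pdgfra by 0.09 and Nkx2-2 by 0.19, with Bmp4 higher by 0.16.

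Neuronal gene groups differed little. Excitatory neuron genes were lower in 13 of 20 (median -0.06) and inhibitory neuron genes in 11 of 17 (median -0.02), with 0 at an unadjusted p under 0.05, against 3.77% of all genes. Neurod6, a transcription factor of cortical pyramidal neurons, read 7.41, 6.59, 7.46 and 6.38 in TgCRND8 arrays, and 7.51, 7.24, 7.45 and 6.97 in control arrays. It was lower by 0.33 through TgCRND8 arrays 2 and 4, and higher by 0.14 without them. Gad1, the enzyme of GABA synthesis, differed by -0.10 and Gad2 by 0.03, and Pvalb, of fast-spiking interneurons, by -0.20. In the inhibitory list Gabrb2, a GABA receptor subunit gene named for its lack of overlap after its values were seen, was lower by 0.09. Such a lack of overlap downwards was found for 0.401% of all genes.

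Striatal projection neuron genes were lower in 11 of 18 (median -0.04), with the dopamine receptor genes Drd1 at 0.06 and Drd2 at -0.17. Basal forebrain cholinergic genes were higher in 6 of 11 (median 0.04), with Chat at -0.12 and the vesicular transporter gene Slc18a3 at 0.14. Presynaptic active zone genes were higher in 10 of 23 (median -0.01). Rims1, one of the 22 genes of day 150, read 8.95, 8.96, 9.10 and 9.03 in TgCRND8 arrays, and 9.32, 9.17, 8.95 and 8.82 in control arrays, and Cplx2, a complexin of the release machinery, was lower by 0.14. Genes of newborn neurons and proliferation were higher in 11 of 21 (median 0.0011), with the migrating neuron gene Dcx at -0.09 and Tubb2b at -0.20.

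Activity-regulated genes were lower in 23 of 32 with a median of -0.05, but the spread among mice was larger than the difference. Arc, whose RNA appears within minutes of synaptic activity, read 7.56, 7.06, 6.20 and 7.24 in TgCRND8 arrays, and 7.32, 7.15, 6.81 and 7.47 in control arrays, lower by 0.18 (standard error 0.244). Fos differed by -0.09 (standard error 0.263) and Egr2 by -0.26, with Btg2 higher by 0.34. Dimmer probe sets of Egr2 and Btg2 differed by only 0.01 and 0.05. The group's mean was 0.23 in TgCRND8 array 1 and in control array 1, and -0.21 in TgCRND8 array 3 and -0.17 in control array 3. Arrays numbered 1 and arrays numbered 3 thus stood together across the groups here, and the time of day or handling at death is not given. Circadian clock genes were lower in 12 of 21 (median -0.04), with Dbp at -0.22 and Cry1 at 0.16.

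**Figure D5:**
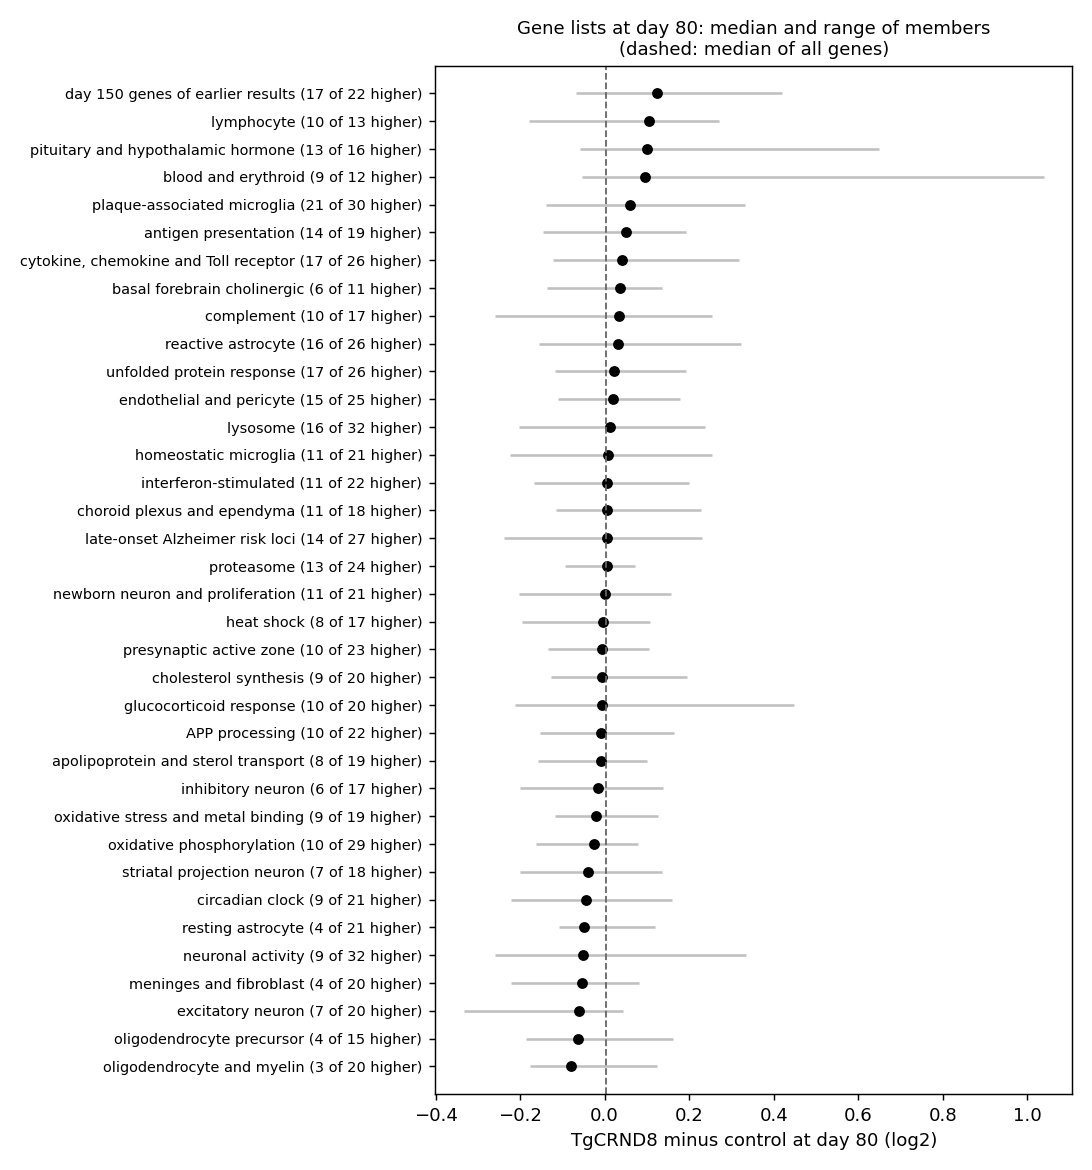
Median TgCRND8 minus control difference at day 80 (log2, points) and range of members (grey lines) for 36 gene lists, ordered by median, with the number of members higher in TgCRND8. The medians run from -0.08 (oligodendrocyte and myelin) to 0.12 (day 150 genes of earlier results), and the dashed line is the median of all genes, 0.0022.

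Stress pathways showed no common direction. Unfolded protein response genes were higher in 17 of 26 (median 0.02), with the chaperone gene Hspa5 at 0.05 and Pdia4 at 0.19. Heat shock genes were higher in 8 of 17 (median -0.0039), and the chaperone genes Cryab and Hspa4l, lower by 0.20 and 0.16, had an unadjusted p under 0.05, as had 3.77% of all genes. A second Cryab probe set of like level differed by 0.0031. Hspa1b, an inducible Hsp70 gene, read 7.21 in control array 1 and 5.37 to 6.16 in the other 7 arrays. Genes of oxidative stress and metal binding were higher in 9 of 19 (median -0.02), with Mt1 at 0.02 and Gpx1 at -0.12. Glucocorticoid response genes were higher in 10 of 20 (median -0.01), with 3 at an unadjusted p under 0.05, as had 3.77% of all genes. Hif3a, a hypoxia factor that glucocorticoids induce, read 5.33, 5.43, 5.47 and 6.22 in TgCRND8 arrays, and 5.01, 4.92, 5.54 and 5.19 in control arrays, higher by 0.45 (unadjusted p = 0.00694 by limma), while Ddit4, induced by the same hormone, was lower by 0.21. Hif3a differed by 0.25 without TgCRND8 array 4, and its other, dimmer probe sets differed by -0.10 to 0.18.

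Lipid and metabolic groups, and genes at late-onset Alzheimer loci, were near 0 as well. Cholesterol synthesis genes were higher in 9 of 20 (median -0.01), with the early enzyme gene Hmgcs1 and the squalene epoxidase gene Sqle at -0.02 each, Nsdhl at 0.20 and Msmo1 at -0.13. Sterol transport genes were higher in 8 of 19 (median -0.01): Apoe read 12.18, 12.04, 11.99 and 12.04 in TgCRND8 arrays, and 12.06, 12.05, 12.02 and 12.01 in control arrays. Clu differed by 0.01 and the transporter gene Abca7 by -0.16. Of 27 genes at late-onset Alzheimer loci 14 were higher (median 0.01). Ms4a6d, of a membrane protein family in myeloid cells, was with Ace 1 of 2 members that did not overlap, as for 0.846% of all genes upwards. It read 3.36, 3.68, 3.51 and 3.337 in TgCRND8 arrays and 3.11, 3.25, 3.335 and 3.27 in control arrays, a gap in the third decimal, and was higher by 0.23. Rin3, an endosomal regulator, was lower by 0.24. Oxidative phosphorylation genes were lower in 19 of 29 (median -0.02), such as Ndufa1 by 0.15 and Cycs by 0.16, and proteasome genes were higher in 13 of 24 (median 0.01) within -0.09 and 0.07.

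The genes that were higher with the smallest p were dim, all 10 below the median gene's level of 5.38. Teddm2 read 3.65, 3.83, 3.79 and 4.00 in TgCRND8 arrays, and 3.37, 3.26, 3.46 and 3.49 in control arrays, higher by 0.42 (standard error 0.0873, unadjusted p = 5.35e-05, adjusted p = 0.9734 by limma, Benjamini-Hochberg). Acsm1, an acyl-CoA synthetase gene, was higher by 0.35 and Syce1, a protein of paired meiotic chromosomes, by 0.39, with means of 3.23 and 3.37 in TgCRND8 and 2.89 and 2.97 in control arrays. Gm29805, Car1, Tgif1, Zc3hav1l, Pced1b, Slc6a20b and Gucy2e followed, higher by 0.28 to 0.36. Of these 10 genes, 8 had all TgCRND8 arrays above all controls, as had 0.846% of all genes, the exceptions being Tgif1 and Zc3hav1l. The 10 were picked by p on these same arrays, which favours such separation, so the count is no support for them.

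Among genes that were lower, Ppp1r12c, a targeting subunit of myosin phosphatase, read 5.81, 5.66, 5.80 and 5.52 in TgCRND8 arrays, and 6.12, 6.01, 5.89 and 5.95 in control arrays, lower by 0.29 (unadjusted p = 0.000742 by limma) with no overlap. Rpia, an enzyme of the pentose phosphate pathway, was lower by 0.38 and also without overlap. Such separation downwards was found for 0.401% of all genes, and both genes were picked by p on these same arrays. Lhx2, a transcription factor gene of forebrain patterning, read 6.93, 6.74, 6.58 and 6.57 in TgCRND8 arrays, and 6.89, 7.22, 7.10 and 6.89 in control arrays, lower by 0.32. Abi3bp, coding for an extracellular matrix protein, gave the largest lower value, 3.62 ± 0.42 against 4.29 ± 0.34 in control arrays (SD, n = 4 each), lower by 0.67. Scfd2, Zfp950, Shd, Tmem200c, Tsks and Metap1d were lower by 0.23 to 0.42. Of genes above the median level, Car8, known from cerebellar Purkinje cells, was lower by 0.45 with 1 TgCRND8 array at 5.02, Fcho2 by 0.39 and Rp2 by 0.39. Erdr1, whose copies lie in the pairing region of the sex chromosomes, was higher by 0.39. Without TgCRND8 arrays 2 and 4, Car8, Fcho2, Rp2 and Erdr1 differed by -0.25, -0.07, -0.12 and 0.08. A second, dimmer Fcho2 probe set differed by -0.04, and across the alternatives Rp2 rose as far as -0.04.

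Leaving out TgCRND8 array 1 was the 1 change of arrays after which genes passed, and it brought 2. Neurl1b, a ubiquitin ligase gene that acts on Notch ligands, read 6.76, 5.80, 5.97 and 5.79 in TgCRND8 arrays, and 6.63, 6.61, 6.36 and 6.36 in control arrays. It was lower by 0.41 with all arrays (unadjusted p = 0.00658 by limma) and by 0.63 without array 1 (adjusted p = 0.0071 by limma, Benjamini-Hochberg). Its SD was 0.46 in TgCRND8 arrays at day 80 and 0.06 to 0.15 in the other groups, which share the spread of the fit. Tgif1, a transcriptional repressor gene of the TGF-β pathway, read 3.14, 3.75, 3.57 and 3.63 in TgCRND8 arrays, and 3.003, 3.24, 3.30 and 3.10 in control arrays. It was higher by 0.36 with all arrays and by 0.49 without array 1 (adjusted p = 0.0233 by limma). Without both arrays numbered 1 the differences were -0.59 and 0.43, and their adjusted p were 0.0603 and 0.186 by limma. Without both, 1157 genes had an unadjusted p under 0.05, against 685. Dbp was then lower by 0.41, Pvalb by 0.32 and Slc7a10 by 0.22, and Grn was higher by 0.36, Kdr by 0.33, Nsdhl by 0.32, Ngp by 0.30, C1qa by 0.23 and Cd3e by 0.16. Others came closer to 0, with Nkx2-2 at -0.11, Ifit3 at -0.09, Ifit2 at -0.08 and Msmo1 at -0.055. None of these 13 genes passed. At the other ages Neurl1b differed by -0.05 and -0.02, with TgCRND8 arrays between 6.24 and 6.57 and control arrays between 6.34 and 6.59.

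The difference at day 80 was tested against those of the other ages. Against day 150, 1 gene of 18193 (0.0055%) passed: Cst7 differed by 0.06 at day 80 and 1.59 at day 150, and the day 80 difference minus that of day 150 was -1.53 (adjusted p = 2.66e-06 by limma, Benjamini-Hochberg). Gfap, with 0.32 and 1.42, had an adjusted p of 0.0896 by limma. Without TgCRND8 array 3 of day 80, 3 genes passed: Cst7, Gfap and Tyrobp. Against day 70, 0 genes (0.0%) passed by limma, with 481 at an unadjusted p under 0.05.

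Across the ages, the median of the 22 genes of day 150 was 0.09, 0.12 and 0.67 at days 70, 80 and 150, and that of plaque-associated microglia genes was 0.03, 0.06 and 0.29. The 22 were chosen as higher at day 150 in these same data, so their high median there follows from the choice. Some of them are also in the plaque-associated list. Medians of myelin genes were -0.16, -0.08 and -0.02, and those of cholesterol synthesis genes 0.08, -0.01 and 0.19. For blood and erythroid genes they were -0.02, 0.10 and -0.005. Rims1 differed by 0.35, -0.06 and 0.49 at the 3 ages. Over all genes the day 80 differences correlated with those of day 70 at r = 0.11 (rho 0.10) and with those of day 150 at r = -0.17 (rho -0.20), across 18193 genes that are not independent replicates.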

How the data were processed

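Affymetrix mouse arrays were hybridised with biotin-labelled RNA made by in vitro transcription from oligo(dT)-primed cDNA, after TRIzol and column extraction, per the labels' protocols. The deposited values are log2 signals, per the range of the values (day 80 arrays: minima 2.09 to 2.19, medians 4.29 to 4.38, maxima 13.4 to 13.7). The sources used here do not say how the authors normalized them, and any centring is unknown. All 24 columns were mapped from the labels.

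Of 45037 probe sets other than controls, 34945 carried 1 gene symbol. Each of 18193 genes was represented by its brightest probe set, averaged over 24 arrays; 9010 genes had more than 1. All arrays entered 1 limma fit of 6 group means (18 residual and 7.47 prior degrees of freedom), with Benjamini-Hochberg adjustment over all genes. Its standard errors and p rest on the spread of all 24 arrays. For Alas2, Avp, S100a9 and Neurl1b at least 1 day 80 group had a larger SD than every group of the other ages. Probe sets of App and Prnp were also compared by exact permutation over 70 labellings. Gene lists, 37 with 765 measured entries (53 of 705 genes in more than 1), are described by counts and medians and were not tested. The members and lists were chosen with earlier results of these data known.

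Named genes are the 10 smallest p in each direction, the 5 largest differences in each direction among brighter genes, the first 2 and the 2 extreme members of each list, all members of 3 lists (day 150, blood, sex chromosome), a set of 13 single genes, and genes that passed in any fit. Bace1, Psen2, Ncstn, Psenen, Adam10, Serpina3n and Lcn2, and others so marked, were named after their values were seen. The number of arrays limits precision, and depth has no counterpart here. The fit was tested on simulated arrays. Promoters came from RefSeq (GRCm38.p6). Alternatives are in the closing section; cyclic loess and leaving out TgCRND8 arrays 2 and 4 were added after the data were seen. Versions were R 4.3.3, limma 3.58.1 and Python 3.11.15 with pandas 2.3.3, numpy 2.4.6 and matplotlib 3.10.9.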

Additional observations from a re-analysis of the deposited data

Results flagged for a closer look

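Among 362 sets of 4 arrays, 17 had 1 array far from the other 3; chance alone gives about 1 in 20. Among TgCRND8 arrays these were Pomc at 7.41 and Sall1 at 4.50 in array 2, Col1a2 at 6.23, Hif3a at 6.22 and Rin3 at 4.19 in array 4, and Tgm1 at 3.25 in array 1. Among control arrays they were Hspa1b at 7.21, Abca7 at 5.22 and Shd at 5.88 in array 1, C1qa at 7.25 in array 3 and S100a9 at 4.74 in array 4. For list means, given as deviations from the 8 arrays, they were complement at -0.083 in TgCRND8 array 1, inhibitory neuron at -0.049 in TgCRND8 array 2, oxidative stress and metal binding at 0.12 in TgCRND8 array 3, meninges and fibroblast at -0.11 and heat shock at 0.27 in control array 1, and oligodendrocyte and myelin at 0.12 in control array 4.

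Differences at day 80 were set against those of day 150 for the named genes. That of Cst7 was lower at day 80 by limma, at -1.53. Gm29805 had all TgCRND8 arrays above the controls at day 80 and all below them at day 150. Its day 80 difference minus that of day 150 was 0.50 (adjusted p = 0.7686 by limma).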

How the results depend on the processing

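The count of 0 genes past the adjusted threshold held under every alternative run except without TgCRND8 replicate 1, where limma passed 2 (leave-one-out 0 to 2). The 685 genes at an unadjusted p under 0.05 became 1348 over all probe sets, 295 without the dimmest 40% of genes, 319 with only the 8 arrays of day 80, 354 without TgCRND8 replicates 2 and 4, and 443 to 1484 without 1 replicate. Both ends came from TgCRND8 mice: 1484 without replicate 1 and 443 without replicate 4, with 1235 without replicate 3; without both replicates 1 it was 1157. Genes whose groups did not overlap numbered 227, 93 without the dimmest genes, 491 over all probe sets, and 389 to 1347 with fewer replicates, where fewer arrays overlap less. The 1 gene that differed from day 150 became 2 over all probe sets, 2 with the mean of probe sets, 2 at an adjusted p under 0.10, 1 to 3 without 1 replicate, and 0 without the dimmest genes, which leaves Cst7 out. A replicate block gave 3 there and 812 unadjusted genes; the numbers do not pair the mice by the labels, and same-number arrays' deviations correlated at 0.479, -0.231, 0.372 and 0.134. Of 3841 gene differences recomputed, 213 changed sign, 13 of them from at least 1 standard error. With the mean of all probe sets Apba1 was 0.0486, Gpnmb 0.0002 and Fech -0.0167. Without TgCRND8 replicates 2 and 4, a setting chosen after seeing the data, Cd109 was 0.0521, Il34 0.0109, Kdr -0.0997, Mog 0.0932, Tubb2b 0.0118, Neurod6 0.1415, Rab3a -0.0303, Cycs 0.0704 and Cd3d -0.0235. Without 1 replicate Il34 ran from -0.21 to 0.053. Of 723 list medians recomputed, 598 kept their sign. The cause of these shifts was not tested. Dim probe sets near the lower quartile limit what can be read for Cst7, lymphocyte and red cell genes.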
